A study of Rattus norvegicus with 15 samples.

Results

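The rat major histocompatibility complex (MHC) is called RT1, and its genes encode the proteins that show peptides to T cells. The genes described here are the 30 entries of the deposited expression table whose symbol begins with RT1-, and with them B2m, Cd74, Ciita, Tap1, Tap2 and Tapbp. They make 36 of the 22468 genes in the table, of which 20 are class I RT1 entries, 10 are class II RT1 entries (symbols that begin RT1-B, RT1-D or RT1-H) and 6 are the other genes. The rule uses gene symbols alone.

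The libraries came from bone of female Sprague-Dawley rats, an outbred stock, by poly(A) RNA sequencing of 15 libraries, 3 in each of 5 groups. SYT, YJT and YJZYT rats were ovariectomized and have no further description than these group names. Model rats were ovariectomized, which takes away the main source of oestrogen, and carry the condition label Osteoporosis. Blank rats had no treatment. The title of the series names Zhuanggu Zhitong Capsule, a Chinese herbal preparation, but no label ties it to a group. A sham operation is not mentioned, so the effect of surgery itself and of ovary loss cannot be told apart. Ages are not given, nor whether replicates are separate animals, so the p-values below reflect the spread of these samples alone, which may be technical. Libraries are named by group and replicate, so that YJT2 is replicate 2 of YJT.

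Library totals ran from 64472700 to 74255667 counts, and the 36 genes took between 0.227% and 0.413% of them. Levels are given in the authors' FPKM, which divides by gene length and library total. Differences between groups are log2 fold changes, each given with its standard error (SE), from edgeR's quasi-likelihood test on the counts, with p-values adjusted over the 17657 genes tested and a threshold of 0.05. Of the 36 genes, 35 passed the filter on low counts. RT1-M5, the class I entry that did not, was listed at 0 FPKM in 14 libraries and at 0.0822 FPKM in SYT2. Bone transcripts were low in YJT3 and YJZYT3, where 6 bone genes summed to 1201 and 1492 FPKM, against 4330 to 19529 FPKM in the other 13 libraries. In bulk tissue, fewer cells of a type and less RNA per cell cannot be told apart.

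MHC class I molecules pair a heavy chain with beta-2 microglobulin (B2m) and carry peptides made inside almost any nucleated cell. The transporter formed by Tap1 and Tap2 brings those peptides into the endoplasmic reticulum, and tapasin (Tapbp) holds the empty class I molecule beside the transporter. MHC class II molecules pair an alpha and a beta chain and are made chiefly by B cells, macrophages and dendritic cells, all of which are found in bone marrow. The invariant chain (Cd74) guards their peptide groove, DM molecules exchange the peptide, DO molecules restrain DM, and the coactivator Ciita switches the class II genes on. In the rat, RT1-A is the classical class I region, and the number and identity of the class I copies differ between RT1 haplotypes.

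Promoter sequences of 32 of the 36 genes were found in RefSeq (assembly GRCr8), each running from 250 bases before to 50 bases after the start of the gene. Ciita, RT1-CE7, RT1-DMb and RT1-M2 were not matched. The class II promoters are shown because they carry the letters through which Ciita and its partners are known to act, the X box and the Y box. Capitals mark the X box core TAGCAAC and the Y box TGATTGG, each searched on both strands. The windows are printed on the strand of the gene, which is the plus strand for RT1-Da at chr20:4515294-4515400, RT1-Ba at chr20:4576942-4577048 and Cd74 at chr18:56527084-56527190, and the minus strand for RT1-Db1 at chr20:4560208-4560314 and RT1-Bb at chr20:4604145-4604251.
RT1-Da: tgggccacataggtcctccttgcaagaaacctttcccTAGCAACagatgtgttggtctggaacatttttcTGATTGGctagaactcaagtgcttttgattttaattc
RT1-Db1: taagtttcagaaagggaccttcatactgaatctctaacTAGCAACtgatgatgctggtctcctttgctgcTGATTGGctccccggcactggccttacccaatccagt
RT1-Ba: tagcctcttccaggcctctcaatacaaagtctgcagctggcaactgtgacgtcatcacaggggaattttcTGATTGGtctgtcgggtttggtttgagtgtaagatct
RT1-Bb: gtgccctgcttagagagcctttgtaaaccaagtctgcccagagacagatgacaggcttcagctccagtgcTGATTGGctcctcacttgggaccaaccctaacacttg
Cd74: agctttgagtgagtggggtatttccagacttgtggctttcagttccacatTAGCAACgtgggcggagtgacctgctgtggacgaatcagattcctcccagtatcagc
The Y box letters were present in 9 of 9 class II promoters, in 9 of 18 class I promoters and in 0 of the 5 promoters of the other genes, against 7.06% of all 33469 promoters. The X box core letters were present in RT1-Da, RT1-Db1, RT1-DOb, Cd74 and Tap2, against 3.58% of all promoters. A match is a description of the letters, and no binding was measured.

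The class I windows are shown for RT1-A2, the class I entry with the highest level, for RT1-CE10, the entry with the widest range between libraries, and for B2m. In the first pair, the long run of capitals is a binding sequence of NF-kappaB, and the other capitals, in RT1-A2 alone, are the Y box read on the other strand. In B2m the capitals mark the core of an interferon-stimulated element, GAAA and again GAAA with any 2 bases between. All were searched on both strands. RT1-A2 lies at chr20:4872677-4872827 on the plus strand, RT1-CE10 at chr20:3385043-3385193 on the minus strand and B2m at chr3:129549160-129549309 on the plus strand, in GRCr8.
RT1-A2: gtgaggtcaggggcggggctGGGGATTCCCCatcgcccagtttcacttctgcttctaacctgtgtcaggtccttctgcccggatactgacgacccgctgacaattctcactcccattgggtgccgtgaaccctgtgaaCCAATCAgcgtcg
RT1-CE10: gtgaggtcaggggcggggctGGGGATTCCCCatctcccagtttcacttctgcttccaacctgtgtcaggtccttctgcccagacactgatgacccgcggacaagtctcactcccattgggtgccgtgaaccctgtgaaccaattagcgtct
B2m: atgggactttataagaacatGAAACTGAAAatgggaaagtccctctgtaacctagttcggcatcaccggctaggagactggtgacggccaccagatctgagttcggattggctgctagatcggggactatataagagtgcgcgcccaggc
The NF-kappaB letters of RT1-A2 were present in RT1-A1, RT1-A2, RT1-CE10 and RT1-CE4, 4 of 18 class I promoters, against 0.0627% of all promoters. The letters of the interferon-stimulated core were present in B2m, Tap1, Tap2, Tapbp, RT1-N3, RT1-S2 and RT1-S3, against 3.92% of all promoters. Pairs of RT1-A and RT1-CE promoters had an identity of 57.7% to 83.7% (median 76.3%, 21 pairs), against 54.7% to 96.7% (median 59.1%) over the other 132 pairs of class I promoters, so the ranges overlapped, and RT1-A2 and RT1-CE10 shared 82.3% of their bases.

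By the coordinates in the deposited table, which carry no build name and are not compared with GRCr8, the RT1 entries, Tap1, Tap2 and Tapbp lie on chromosome 20 between positions 154074 and 5476193. Ciita lies on chromosome 10 (5213350 to 5260608), Cd74 on chromosome 18 (56071478 to 56080849) and B2m on chromosome 3 (114087287 to 114093309). There, 9 entries overlap another of the set on the same strand, in 10 pairs. RT1-CE1, RT1-CE4 and RT1-CE7 span long stretches that overlap RT1-CE5, and RT1-A1 spans RT1-A2. How reads shared by such copies were counted was not given in the sources used here, so levels of single RT1 copies are uncertain throughout, and the group values below carry that limit.

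**Figure D1:**
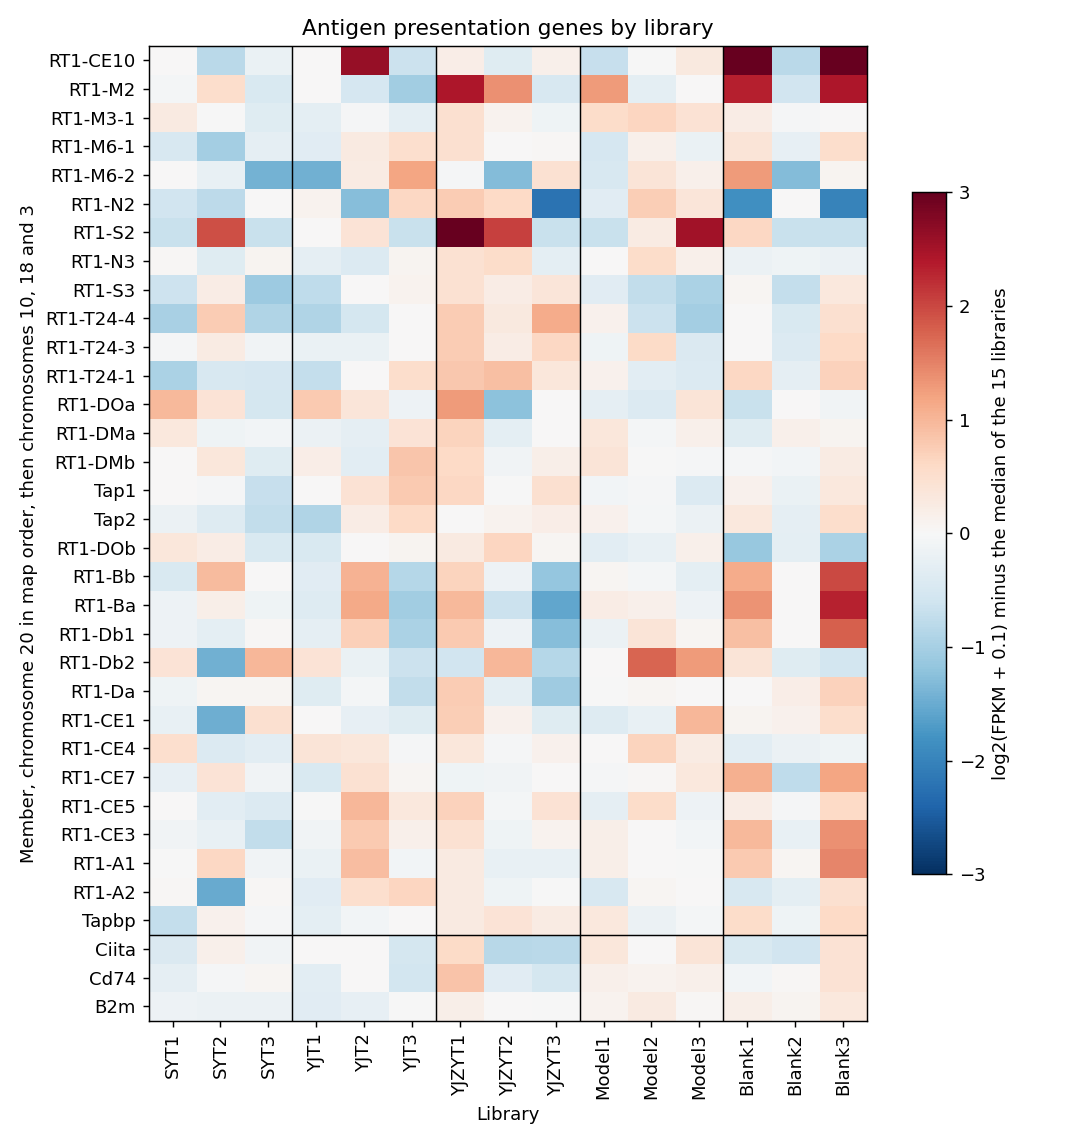
Level of each gene in each library as log2(FPKM + 0.1) minus its median over the 15 libraries (colour, from -3 in blue to 3 in red), for the 34 genes that reached 1 FPKM in a library. Rows follow chromosome 20 and then Ciita, Cd74 and B2m, and columns follow the groups. RT1-CE10 stands out in YJT2, Blank1 and Blank3, while B2m, at 438 to 693 FPKM, shows little colour.

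Transcripts of the shared class I subunit were the most abundant of the set, and none of the tests on it passed. B2m, which encodes beta-2 microglobulin, was at 504, 497 and 495 FPKM in SYT, at 438, 471 and 548 FPKM in YJT, and at 627, 557 and 553 FPKM in YJZYT, with 602, 677 and 574 FPKM in Model and 628, 585 and 693 FPKM in Blank. In FPKM all 3 SYT and all 3 YJT libraries were below the 3 Model libraries, and in TMM-scaled CPM, which the test uses, they overlapped. The B2m fold change was -0.06 (SE 0.17) in SYT against Model, -0.20 (SE 0.17) in YJT against Model and 0.04 (SE 0.17) in YJZYT against Model, with edgeR adjusted p = 1, 0.847 and 0.975.

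The peptide transporter showed more movement between libraries. Tap1 was at 13.97, 13.6 and 8.68 FPKM in SYT, at 14.1, 19.0 and 24.2 FPKM in YJT, and at 21.6, 13.8 and 19.5 FPKM in YJZYT, with 13.3, 13.6 and 10.5 FPKM in Model and 15.3, 12.2 and 17.4 FPKM in Blank. All 3 YJT and all 3 YJZYT libraries were above the 3 Model libraries, and SYT overlapped Model. Tap2, the partner of Tap1, averaged 9.21 ± 1.78 FPKM in SYT, 13.1 ± 6.10 in YJT, 13.2 ± 0.873 in YJZYT, 12.0 ± 1.35 in Model and 14.5 ± 3.90 in Blank (SD, n = 3 each), with the lowest library (YJT1, 6.49 FPKM) and the highest (YJT3, 18.5 FPKM) in the same group. Tapbp, which encodes tapasin, averaged 19.4 ± 5.50 FPKM in SYT, 20.03 ± 2.12 in YJT, 27.1 ± 1.69 in YJZYT, 22.6 ± 4.17 in Model and 28.2 ± 7.29 in Blank (SD, n = 3 each), and its YJZYT libraries were above those of SYT and YJT and overlapped those of Model and Blank in FPKM.

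**Figure D2:**
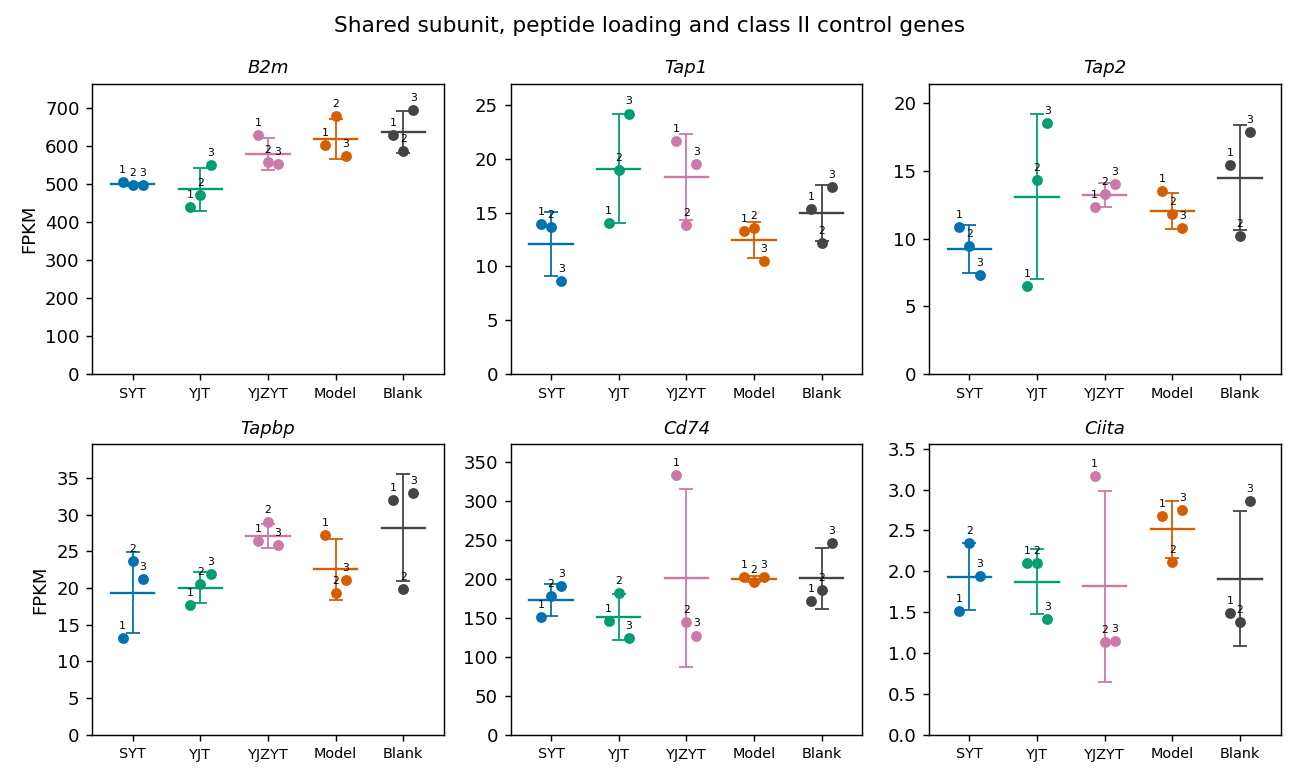
FPKM of B2m, Tap1, Tap2, Tapbp, Cd74 and Ciita in each library (points, numbered by replicate), with the mean (wide line) and SD (error bar, n = 3) of each group. YJZYT1 is the highest library for Cd74 (333 FPKM) and for Ciita (3.16 FPKM), and Model libraries lie close together for Cd74.

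Among the class I heavy chains, RT1-A2 was highest per length. It was at 129 FPKM in SYT1, 44.7 in SYT2 and 129 in SYT3, at 99.8, 180.3 and 199 FPKM in YJT, and at 154, 116 and 127 FPKM in YJZYT, with 90.7, 132 and 127 FPKM in Model and 90.4, 104 and 177 FPKM in Blank. SYT2 was the lowest library, and the groups overlapped. RT1-S3 and RT1-CE5 followed with means of 63.8 and 59.6 FPKM over the 15 libraries, and RT1-T24-4 with 37.9 FPKM. The ranges of these 3 overlapped (33.0 to 96.5, 38.5 to 102 and 18.1 to 80.4 FPKM).

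RT1-S3, a non-RT1-A class I entry, was at 45.8, 82.8 and 33.0 FPKM in SYT, at 41.4, 70.5 and 75.5 FPKM in YJT, and at 96.5, 82.4 and 91.1 FPKM in YJZYT, with 55.5, 42.3 and 36.7 FPKM in Model and 73.3, 43.1 and 87.9 FPKM in Blank. Every YJZYT library was above every Model library. RT1-CE5 averaged 43.3 ± 6.62 FPKM in SYT, 71.9 ± 27.0 in YJT, 66.4 ± 16.7 in YJZYT, 54.2 ± 18.1 in Model and 61.9 ± 14.02 in Blank (SD, n = 3 each), and the groups overlapped. Summed over the 20 class I entries, levels were 334 to 365 FPKM in SYT, 324 to 550.2 in YJT, 440 to 575 in YJZYT, 356 to 425 in Model and 332 to 644 in Blank. Each of the 3 YJZYT sums was above the 3 Model sums, and the Blank sums ran from below to above those of Model. The 10 class II entries summed to 102 to 116 FPKM in SYT, 87.7 to 138 in YJT, 64.8 to 179.9 in YJZYT, 107 to 114 in Model and 111 to 256 in Blank, so that Model and SYT were narrow and the other groups wide.

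Among the class II chains, RT1-Da, the alpha chain of the RT1-D molecule, had the highest mean level per length (36.6 FPKM). It was at 33.2, 37.7 and 37.6 FPKM in SYT, at 28.4, 34.9 and 21.8 FPKM in YJT, and at 61.6, 29.5 and 17.4 FPKM in YJZYT, with 35.9, 37.5 and 36.8 FPKM in Model and 36.3, 42.0 and 58.6 FPKM in Blank. Model libraries were nearly equal, and the YJZYT group held both the highest and the lowest library. RT1-Ba, the alpha chain of the RT1-B molecule, and RT1-Db1, a beta chain of RT1-D, are described with the variable copies below.

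The DM and DO chains, which serve peptide loading, had lower mean FPKM over the 15 libraries than RT1-Da. RT1-DMb, a chain of the peptide exchanger DM, averaged 16.3 ± 3.90 FPKM in SYT, 20.04 ± 8.02 in YJT, 19.2 ± 4.93 in YJZYT, 17.6 ± 3.06 in Model and 16.7 ± 2.17 in Blank (SD, n = 3 each). RT1-DMa ranged from 7.60 to 15.6 FPKM over the 15 libraries, and the DO chains RT1-DOa and RT1-DOb from 0.711 to 4.49 and from 1.12 to 4.14 FPKM. The table holds a second entry described as DMb and another described as DMa, so reads of these genes may be divided. RT1-Ha stayed at or under 0.292 FPKM in all libraries.

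Cd74, the invariant chain, was at 151, 178 and 190.5 FPKM in SYT, at 146, 182 and 124 FPKM in YJT, and at 333, 144 and 127 FPKM in YJZYT, with 202, 196 and 202 FPKM in Model and 172, 186 and 246 FPKM in Blank. In FPKM all 3 SYT and all 3 YJT libraries were below the 3 Model libraries, and YJZYT1 was far above the other YJZYT libraries. In TMM-scaled CPM all 3 groups overlapped Model. The Cd74 fold change was 0.03 (SE 0.31) in SYT against Model, -0.23 (SE 0.31) in YJT against Model and 0.13 (SE 0.31) in YJZYT against Model, with edgeR adjusted p = 1, 0.903 and 0.944. Ciita averaged 1.94 ± 0.415 FPKM in SYT, 1.87 ± 0.398 in YJT, 1.82 ± 1.17 in YJZYT, 2.51 ± 0.352 in Model and 1.91 ± 0.824 in Blank (SD, n = 3 each). YJZYT1 was the highest library for Ciita at 3.16 FPKM, and the other YJZYT libraries were the lowest at 1.14 and 1.15 FPKM.

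Spread between replicates was summarised per gene. The biological coefficient of variation from edgeR had a median of 33.0% over 19 class I entries, 47.9% over 10 class II entries and 25.8% over the other 6 genes, against 31.8% over all 17657 genes tested. It was above the median of all genes for 11 class I entries, 6 class II entries and 1 of the other genes, Ciita (34.1%). RT1-S2, at or under 1.71 FPKM, had the highest value of the set at 203%.

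RT1-CE10, a class I entry, had 3 libraries far above the rest. It was at 4.43, 2.45 and 3.79 FPKM in SYT, at 4.37, 27.1 and 2.76 FPKM in YJT, and at 5.05, 3.37 and 4.85 FPKM in YJZYT, with 2.67, 4.32 and 5.41 FPKM in Model and 47.7, 2.46 and 48.6 FPKM in Blank. YJT2, Blank1 and Blank3 were high, and the other 12 libraries, Blank2 among them, lay between 2.45 and 5.41 FPKM.

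RT1-Ba was at 17.7, 22.1 and 18.1 FPKM in SYT, at 15.1, 43.1 and 9.48 FPKM in YJT, and at 38.5, 12.5 and 6.64 FPKM in YJZYT, with 22.8, 21.8 and 17.8 FPKM in Model and 50.3, 19.7 and 97.7 FPKM in Blank. RT1-Db1 was at 11.4, 10.4 and 13.1 FPKM in SYT, at 10.6, 21.1 and 6.54 FPKM in YJT, and at 22.3, 11.5 and 5.25 FPKM in YJZYT, with 11.3, 16.8 and 13.3 FPKM in Model and 23.8, 12.8 and 44.5 FPKM in Blank. Both were highest in Blank3 and lowest in YJZYT3, and Blank2 lay among the Model libraries. RT1-Bb, the beta chain of RT1-B, was at 3.95, 10.7 and 5.52 FPKM in SYT, at 4.29, 11.3 and 2.99 FPKM in YJT, and at 8.69, 4.87 and 2.39 FPKM in YJZYT, with 5.71, 5.21 and 4.48 FPKM in Model and 12.0, 5.47 and 21.9 FPKM in Blank.

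RT1-N2, a class I entry, was low in libraries where RT1-CE10 was high. It was at 4.29, 3.68 and 6.39 FPKM in SYT, at 6.92, 2.60 and 9.96 FPKM in YJT, and at 10.8, 9.72 and 1.31 FPKM in YJZYT, with 5.00, 10.7 and 8.24 FPKM in Model and 1.73, 6.41 and 1.51 FPKM in Blank. The 4 lowest libraries were YJT2, YJZYT3, Blank1 and Blank3. RT1-CE1 ranged from 3.47 FPKM (SYT2) to 19.6 FPKM (Model3), and RT1-T24-4 from 18.1 FPKM (Model3) to 80.4 FPKM (YJZYT3).

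**Figure D3:**
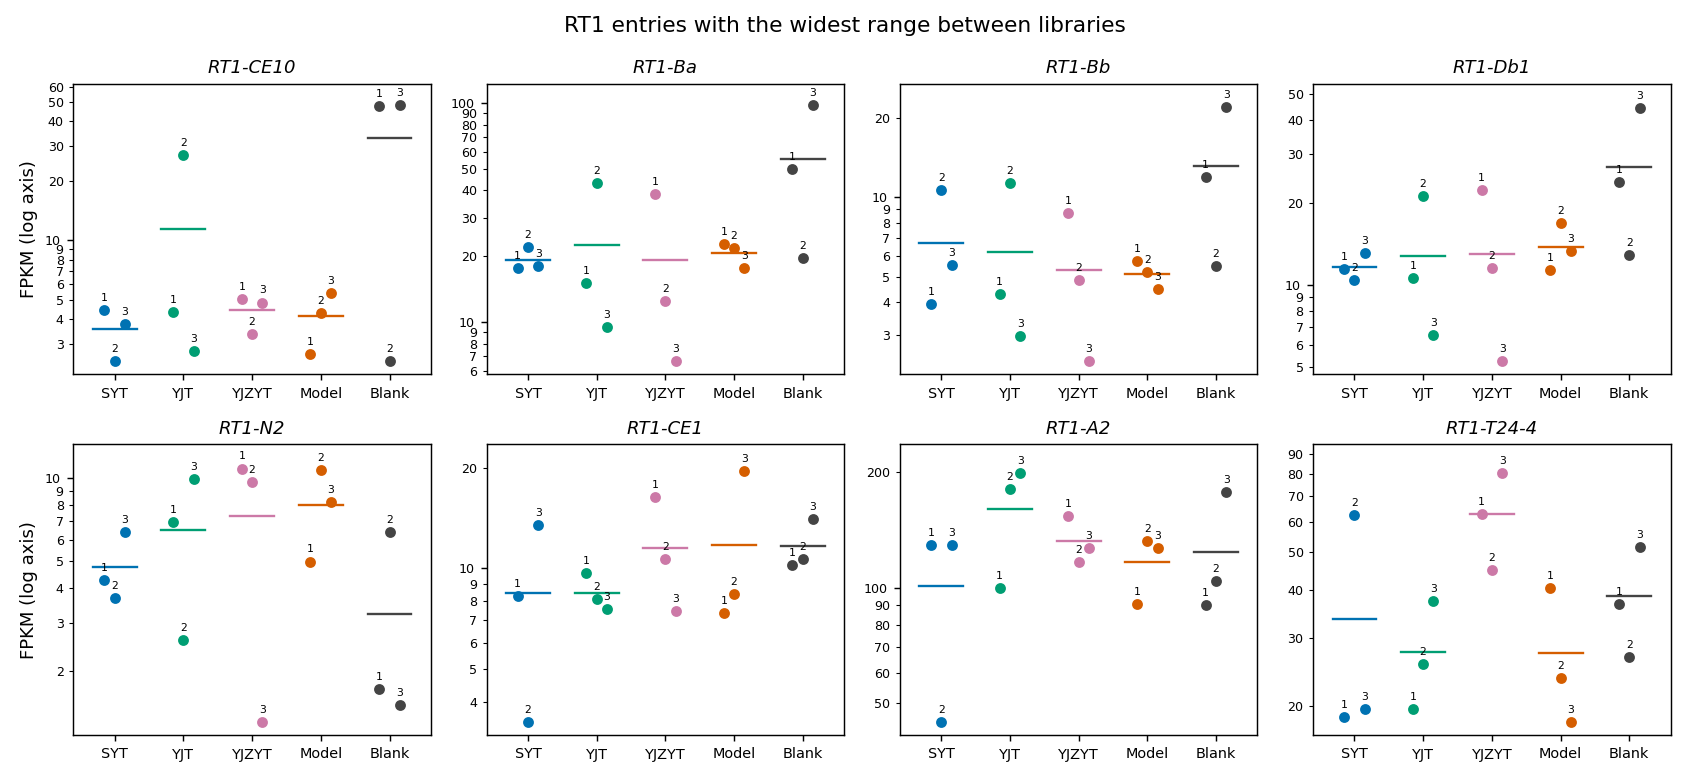
FPKM on a log axis of the 8 RT1 entries with the largest ratio of highest to lowest library among those that reached 5 FPKM, in each library (points, numbered by replicate), with the group mean (line). RT1-CE10 is high in YJT2, Blank1 and Blank3 and RT1-N2 is low there, while the 3 Model libraries stay close together for RT1-Ba and RT1-Bb.

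YJT2, Blank1 and Blank3 were the 3 highest libraries in FPKM for RT1-A1, RT1-Ba, RT1-Bb, RT1-CE10, RT1-CE3 and RT1-CE7, 6 of the 29 RT1 entries tested, against 0.198% of all genes. In TMM-scaled CPM it was 4 of 29 (RT1-Ba, RT1-CE10, RT1-CE3 and RT1-CE7), against 0.232% of all genes. These libraries were picked out after the values were seen, and they belong to different groups, so they are described separately and were not tested as a group.

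In Model against Blank, which sets ovariectomized rats against untreated ones, 0 of 35 members passed the threshold in edgeR. Over all genes, 0.0227% passed. Unadjusted p was under 0.05 for 3 members, 8.57% of them, all lower in Model, against 8.19% of all genes (3.96% higher and 4.23% lower). These were RT1-CE10, RT1-A1 and RT1-Bb. DESeq2 called 1 of 35 members, RT1-CE10, and limma on log2(FPKM + 1) called 0 of the 32 members that it held. DESeq2 called far more genes than edgeR, as numbered under the processing alternatives, so its 1 call is not read as an excess. Under an unadjusted 0.05 there were 7 members by DESeq2 and 2 by limma. Unadjusted shares of all genes by DESeq2 and limma are not given, here or in the comparisons below. The edgeR shares are no background for such counts, which are not read as an excess. By class, 13 of 19 class I entries, 5 of 10 class II entries and 5 of the other 6 genes were lower in Model, with median log2 fold changes of -0.32, -0.01 and -0.14, against 0.02 over all genes.

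RT1-CE10 had a log2 fold change of -2.94 in Model against Blank (SE 0.98, edgeR adjusted p = 0.407) and of -2.95 in DESeq2 (adjusted p = 0.0356). With RLE factors, with no scaling factors and with libraries left out, edgeR gave it an adjusted p between 0.291 and 1. Its groups overlapped, because Blank2 was at the level of the Model libraries, and without YJT2, Blank1 and Blank3 the fold change was 0.60. RT1-A1, a classical class I entry, had a fold change of -0.81 (SE 0.37, edgeR adjusted p = 0.597) and RT1-Bb of -1.32 (SE 0.60, edgeR adjusted p = 0.599), and without those 3 libraries -0.16 and -0.23. Without them the class I median was 0.18, against -0.03 over all genes, where 1 Blank library was left and was assumed to vary like the other groups. Blank1 and Blank3 were picked out for high values of RT1 entries. Leaving them out therefore lifts the fold changes of such entries by construction, and nothing is concluded from the refit. With 1 replicate left out, the class I median ran from -0.58 (without Blank2) to -0.12 (without Model1).

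None of the other genes given by library passed in Model against Blank. The log2 fold change was -1.39 (SE 0.68) for RT1-Ba and -0.93 (SE 0.54) for RT1-Db1, both high in Blank1 and Blank3. It was -0.31 (SE 0.20) for Tapbp, -0.25 (SE 0.25) for Tap1, -0.25 (SE 0.31) for Tap2, 0.41 (SE 0.38) for Ciita, 0.00 (SE 0.31) for Cd74 and -0.03 (SE 0.17) for B2m. Among the abundant RT1 entries it was -0.07 (SE 0.40) for RT1-A2, -0.58 (SE 0.32) for RT1-S3, -0.16 (SE 0.34) for RT1-CE5, -0.48 (SE 0.43) for RT1-T24-4, -0.30 (SE 0.35) for RT1-Da and 0.08 (SE 0.24) for RT1-DMb. Without YJT2, Blank1 and Blank3 the log2 fold change was -0.06 for RT1-Ba, -0.03 for RT1-Db1, -0.09 for RT1-S3, -0.12 for RT1-T24-4 and -0.11 for Tap1, and Tapbp and Tap2 turned to 0.04 and 0.09. For entries high in Blank1 and Blank3, a shift in this direction was built into the choice of libraries. RT1-M3-1, a relative of the mouse gene H2-M3, whose product presents formylated peptides in the mouse, was at 9.11, 9.71 and 8.38 FPKM in Model and at 7.29, 6.10 and 6.22 FPKM in Blank. Groups did not overlap in TMM-scaled CPM for 5 of 35 members, of which RT1-CE4, RT1-M3-1 and RT1-N3 were above and RT1-A1 and RT1-Bb below in Model, against 15.7% of all genes (7.69% above and 7.99% below). All 5 skeletal muscle markers were lower in Model (median log2 fold change -3.05) and all 4 erythroid markers were lower (median -0.72), while all 6 B cell and all 5 plasma cell markers were higher (medians 0.65 and 0.37), and their part in these values was not tested. The muscle markers summed to 152 to 476 FPKM in Model, against 2499 to 3774 FPKM in Blank, with no overlap.

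SYT, YJT and YJZYT were each set against Model, so these comparisons share the 3 Model libraries. In SYT against Model, 0 of 35 members passed in edgeR, against 0% of all genes, and 0 had an unadjusted p under 0.05, against 3.16% of all genes (1.98% higher and 1.18% lower). DESeq2 and limma also called 0, with 0 and 1 members under an unadjusted 0.05. Class I entries had a median log2 fold change of -0.07 and class II entries of 0.155, against 0.02 over all genes. With no scaling factors beyond library totals, these were -0.33 and -0.10, against -0.22 over all genes, so with either scaling class I lay below the median of all genes and class II above it. The class I median was 0.021 without SYT2, 0.038 without SYT3 and 0.118 without Model2, against 0.023, 0 and 0.041 over all genes. Class I thus lay above all genes without SYT3 or Model2 and nearly level without SYT2. It stayed below without SYT1, Model1 or Model3.

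The smallest p-values in SYT against Model were those of RT1-S3, RT1-DOb and RT1-DOa, with log2 fold changes of 0.50 (SE 0.32), 0.46 (SE 0.34) and 0.79 (SE 0.59) and an edgeR adjusted p of 1 for each. RT1-DOb, the beta chain of DO, was at 3.29, 3.06 and 1.87 FPKM in SYT, against 2.06, 2.22 and 2.91 FPKM in Model. RT1-DOa, its alpha chain, was at 3.66, 2.43 and 1.23 FPKM in SYT, against 1.47, 1.35 and 2.38 FPKM in Model. Both pairs of groups overlapped. RT1-Da was the only member whose SYT and Model libraries did not overlap in TMM-scaled CPM, 1 of 35 and above Model, against 5.89% of all genes (3.24% above and 2.65% below). All 6 B cell markers were lower in SYT (median -0.31), and all 4 erythroid and all 5 skeletal muscle markers were higher (medians 0.62 and 2.24). Their part in the members' values was not tested.

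In YJT against Model, 0 of 35 members passed in edgeR, against 0% of all genes. Unadjusted p was under 0.05 for 2 members, 5.71% of them, against 6.58% of all genes (4.12% higher and 2.46% lower). DESeq2 and limma called 0, with 3 members each under an unadjusted 0.05. Tap1, given above, had a log2 fold change of 0.75 (SE 0.25, edgeR adjusted p = 0.746). RT1-M3-1 was at 5.06, 6.07 and 5.09 FPKM in YJT, against 9.11, 9.71 and 8.38 FPKM in Model, with a fold change of -0.58 (SE 0.23, edgeR adjusted p = 0.746). These were also the members whose groups did not overlap, 2 of 35, against 11.7% of all genes (6.83% above and 4.92% below). RT1-S3, the next by p, had a fold change of 0.63 (SE 0.33, edgeR adjusted p = 0.772).

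Class medians in YJT against Model were 0.15 for class I and 0.125 for class II, against -0.02 over all genes. Without YJT2 they were -0.07 and -0.44, against -0.01 over all genes, and with any other YJT or Model library left out both were above 0. With no scaling factors they were 0.01 and -0.05, against -0.16 over all genes. All 6 B cell markers, all 6 macrophage and monocyte markers and all 6 bone markers were lower in YJT (medians -0.67, -0.62 and -0.95), all 5 skeletal muscle and all 4 erythroid markers were higher (medians 2.47 and 0.96), and their part in the members' values was not tested.

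YJZYT against Model held the most members with a small p-value, all of them higher in YJZYT, and 0 of 35 passed in edgeR, against 0% of all genes. Unadjusted p was under 0.05 for 5 members, 14.3% of them, against 7.29% of all genes (4.44% higher and 2.85% lower). DESeq2 and limma called 0, with 6 and 3 members under an unadjusted 0.05. The 5 were RT1-S3, RT1-T24-1, RT1-T24-3, RT1-T24-4 and Tap1. The 4 RT1 entries among them follow each other in map order among the members, between positions 3176107 and 3282523 of chromosome 20. Of all members, 27 of 35 were higher in YJZYT, with a median log2 fold change of 0.24, against -0.07 over all genes. Without YJZYT1, 18 of 35 were higher and the median was 0.01, against -0.10 over all genes.

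RT1-T24-1 was at 25.2, 26.7 and 18.2 FPKM in YJZYT, against 15.8, 11.5 and 10.8 FPKM in Model, a log2 fold change of 1.02 (SE 0.28, edgeR adjusted p = 0.638). RT1-S3, given above, had a fold change of 1.15 (SE 0.33, edgeR adjusted p = 0.638). RT1-T24-4 was at 62.9, 44.9 and 80.4 FPKM in YJZYT, against 40.3, 23.6 and 18.1 FPKM in Model, a fold change of 1.35 (SE 0.44, edgeR adjusted p = 0.638). For each of these 3 class I entries every YJZYT library was above every Model library. Other groups overlapped YJZYT. RT1-T24-1 was at 22.3, 12.0 and 23.4 FPKM in Blank. RT1-T24-4 was at 36.8, 26.8 and 51.8 FPKM in Blank and at 18.7, 62.5 and 19.6 FPKM in SYT. RT1-T24-3 was at 24.7, 17.1 and 22.4 FPKM in YJZYT, against 13.2, 21.7 and 10.7 FPKM in Model, and its groups overlapped. Tap1 had a fold change of 0.69 (SE 0.25, edgeR adjusted p = 0.638).

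Groups did not overlap in TMM-scaled CPM for 6 of 35 members in YJZYT against Model, against 12.9% of all genes, and all 6 were above Model (7.35% of all genes were above and 5.57% below). The 6 were RT1-DOb, RT1-S3, RT1-T24-1, RT1-T24-4, Tap1 and Tapbp. Class medians were 0.27 for class I and 0.165 for class II, and 0.125 and 0.035 with no scaling factors, against -0.22 over all genes there. All 4 erythroid markers were higher in YJZYT (median 1.39), while all 5 skeletal muscle, all 6 bone, all 6 B cell and all 6 macrophage and monocyte markers were lower (medians -0.78, -0.67, -0.46 and -0.50). The 6 bone markers summed to 1492 to 9162 FPKM in YJZYT, against 6565 to 14537 FPKM in Model, and the 4 erythroid markers to 954 to 1590 FPKM in YJZYT, against 275 to 975 FPKM in Model. The part of these shifts was not tested. Without YJT3 and YJZYT3, the libraries poor in bone transcripts, the class I median was 0.35 and the class II median 0.40. Without YJZYT1 they were 0.13 and -0.41.

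**Figure D4:**
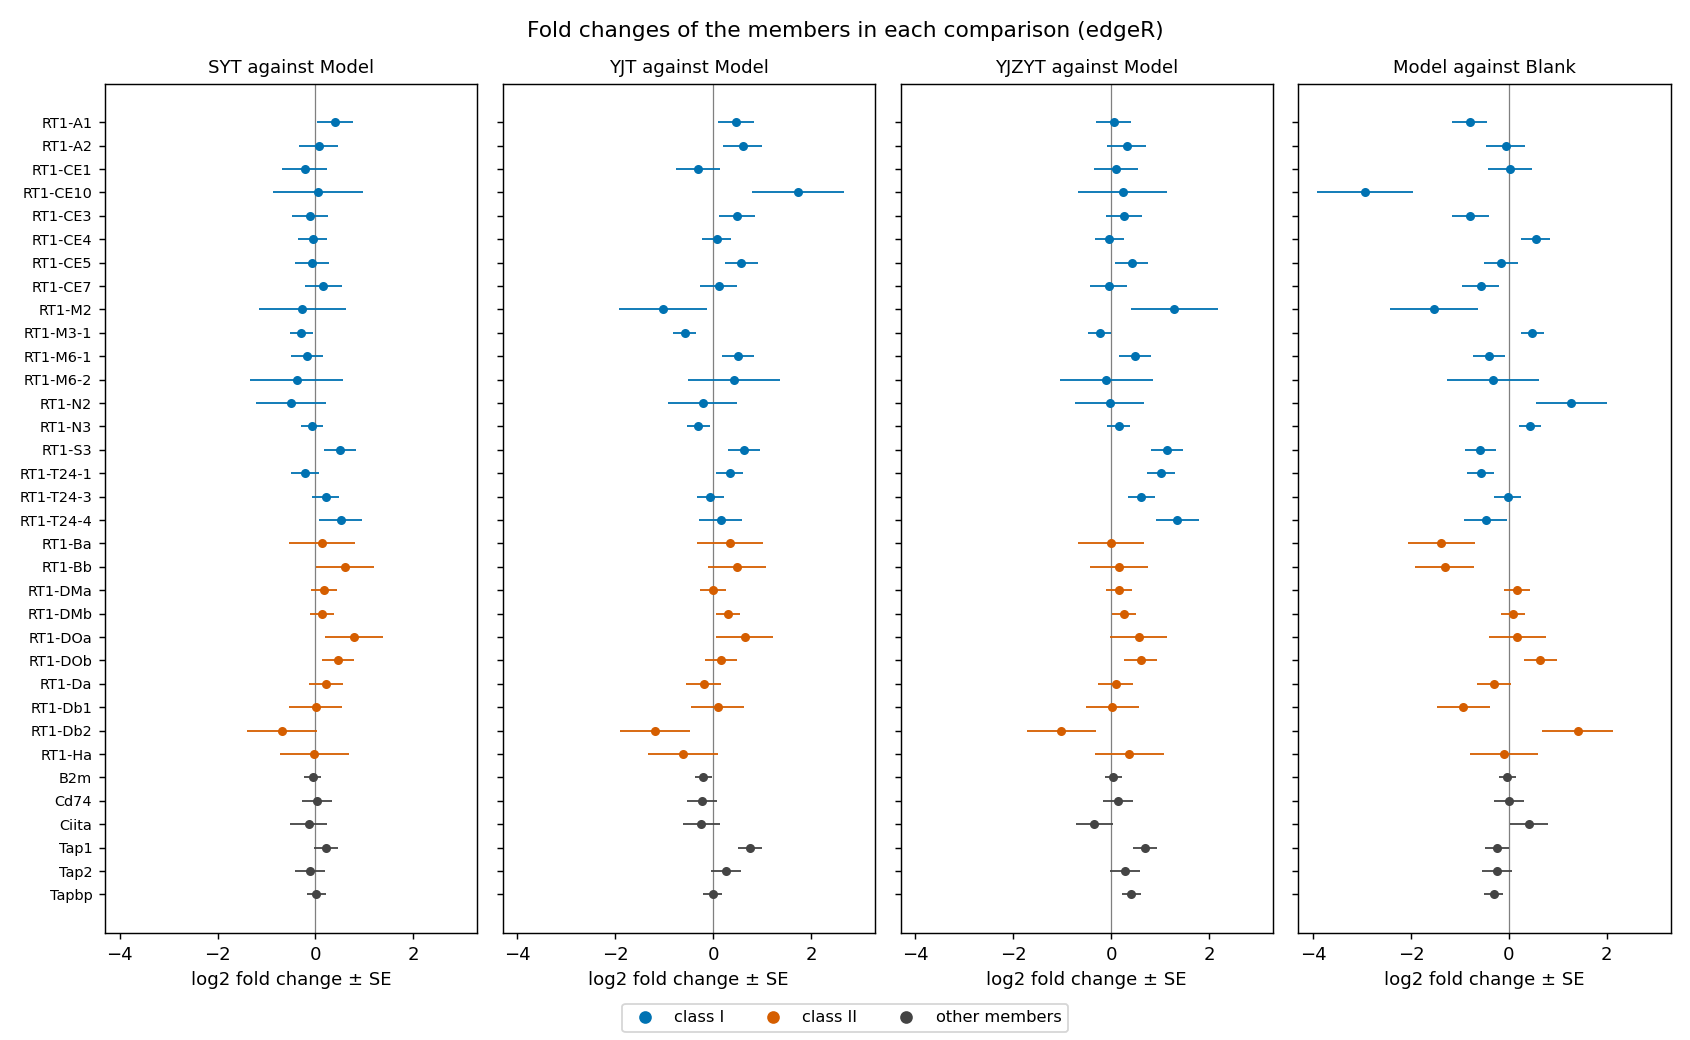
Log2 fold change with its SE from edgeR for 34 of the members tested (RT1-S2, with SE over 2, is left out) in SYT, YJT and YJZYT against Model and in Model against Blank, coloured by class. RT1-S3 and the RT1-T24 entries lie right of 0 in YJZYT against Model, and RT1-CE10 lies at -2.94 in Model against Blank with the widest departure.

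Cd74 tracked RT1-Da and Ciita from library to library. Over the 15 libraries, 8 pairs of genes were related in log2 CPM with permutation tests of 100000 resamples, two-sided and adjusted over the 8. Cd74 and RT1-Da had r = 0.912 (adjusted p = 8e-05) and rho = 0.914 (adjusted p = 0.00016), and r = 0.87 without YJT3 and YJZYT1. Cd74 and Ciita had r = 0.773 (adjusted p = 0.00092) and rho = 0.696 (adjusted p = 0.0202), and r = 0.713 without the same libraries. On deviations from group means these were 0.955 and 0.897.

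The cells that make class II were followed through marker lists. The 6 B cell markers summed to 218 to 309 FPKM in SYT, 165 to 272 in YJT, 250 to 344 in YJZYT, 259 to 567 in Model and 245 to 340 in Blank. The 6 macrophage and monocyte markers summed to 75.3 to 170 FPKM in SYT, 61.5 to 116 in YJT, 57.6 to 156 in YJZYT, 119 to 177 in Model and 128 to 169 in Blank. The 7 dendritic cell markers summed to no more than 23.1 FPKM in any library. The part of these cells in the class II levels was not tested beyond the relations that follow. Cd74 and Cd79a, a chain of the B cell receptor complex, had r = 0.153 (rho = 0.164), and Cd74 and Csf1r, the receptor for macrophage colony-stimulating factor, r = 0.455 (rho = 0.371), with permutation p = 0.594 and 0.175 after adjustment for r. On log2(FPKM + 1), r was 0.261 with Cd79a and 0.593 with Csf1r (adjusted permutation p = 0.407 and 0.0539), so the values depended on the scale. Whether these differ from the relation with RT1-Da was not tested. B2m and Tap1 had r = 0.189 over the libraries as they are (adjusted permutation p = 0.594) and r = 0.739 on deviations from group means (adjusted permutation p = 0.00589). The resampling exchanged deviations freely between all libraries, though those of a group cancel out, so the second p may be too small. B2m and Tapbp had r = 0.175, Tap1 and Irf1, an interferon-regulated transcription factor, r = 0.324, and Tap1 and Psmb9, an immunoproteasome subunit encoded beside it, r = 0.484, and none of these passed (adjusted permutation p = 0.594, 0.386 and 0.175). On log2(FPKM + 1), these pairs had r = 0.555, 0.271 and 0.473 (adjusted permutation p = 0.0636, 0.407 and 0.121).

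**Figure D5:**
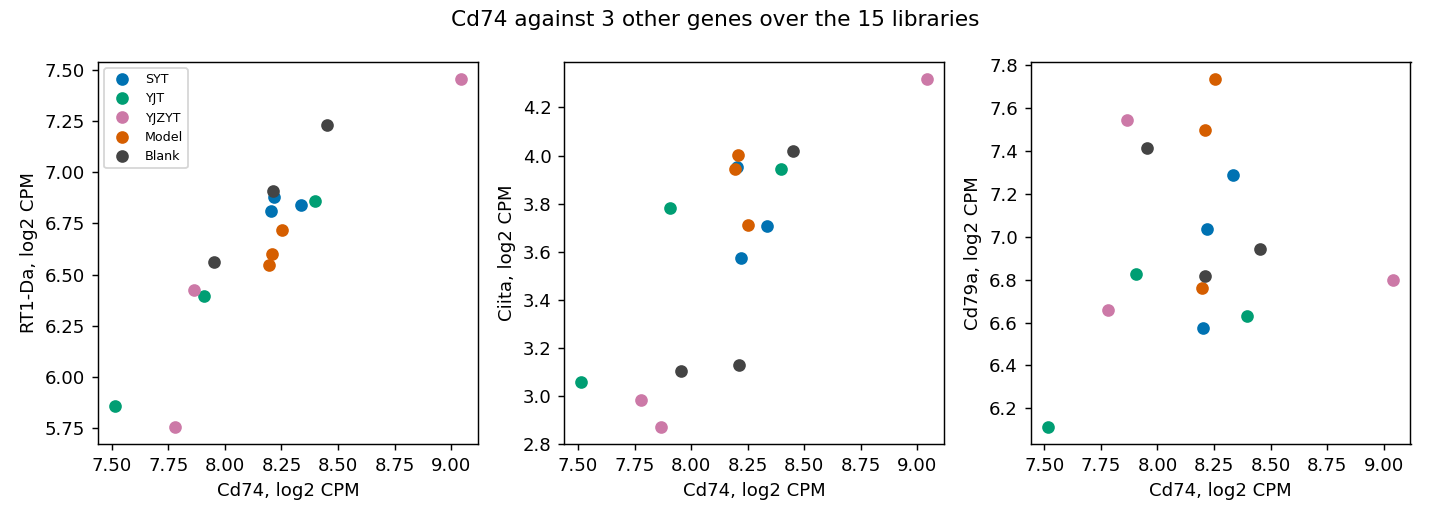
Log2 CPM of RT1-Da, Ciita and Cd79a against that of Cd74 in the 15 libraries, coloured by group. RT1-Da rises with Cd74 (r = 0.912), Ciita less tightly (r = 0.773), and Cd79a has r = 0.153.

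Genes that serve these molecules were followed in 4 lists, and 0 genes of any list passed the threshold in any of the 4 comparisons in edgeR. Of all 17657 genes, 9393 were higher and 8251 lower in SYT than in Model. The counts were 8515 and 9140 in YJT, 7465 and 10169 in YJZYT, and 9124 and 8526 in Model against Blank. Unadjusted p was under 0.05 for 3.16%, 6.58%, 7.29% and 8.19% of all genes, in the same order. The list counts below were not tested against these shares. The class I pathway list held 12 genes of the immunoproteasome, the peptide-loading complex and their control. Of the 12, 9 were lower in SYT than in Model, 9 lower in YJT, 6 lower in YJZYT, and 6 lower in Model than in Blank, with 2 under an unadjusted p of 0.05 in YJT against Model and 0 elsewhere. Calr, which encodes the chaperone calreticulin, was at 242, 180.2 and 261 FPKM in YJT, against 360.4, 353 and 376 FPKM in Model, a log2 fold change of -0.54 (SE 0.16, edgeR adjusted p = 0.73). Pdia3, the disulphide isomerase of the loading complex, was at 143, 117 and 163 FPKM in YJT, against 202, 215 and 213 FPKM in Model, a fold change of -0.44 (SE 0.15, edgeR adjusted p = 0.746). In FPKM, all YJT libraries were below all Model libraries for both. In TMM-scaled CPM, 4 of the 12 genes had all YJT libraries below Model, against 4.92% of all genes. The smallest p in Model against Blank belonged to Nlrc5, a regulator of class I genes, with -0.52 (SE 0.47, edgeR adjusted p = 0.868).

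The class II pathway list held 14 genes, among them the lysosomal proteases and the factors that bind class II promoters. Of the 14, 8 were lower in SYT than in Model, 11 in YJT and 11 in YJZYT, and 4 were lower in Model than in Blank, with 1 under an unadjusted p of 0.05 in each comparison but YJT against Model, where it was 0. Rfx5, a subunit of the RFX complex that binds the X box, had the smallest p of the list in 3 of the 4 comparisons. Its log2 fold change was -0.33 (SE 0.15) in SYT against Model, -0.37 (SE 0.15) in YJZYT against Model and 0.42 (SE 0.15) in Model against Blank, with edgeR adjusted p = 1, 0.647 and 0.457. It was at 8.50, 8.13 and 6.87 FPKM in SYT, at 9.77, 9.21 and 9.14 FPKM in YJT, and at 8.79, 7.91 and 8.28 FPKM in YJZYT, with 10.8, 12.1 and 12.5 FPKM in Model and 9.87, 7.85 and 8.90 FPKM in Blank. In FPKM the 3 Model libraries were above the other 12. In TMM-scaled CPM, which the test uses, SYT and Model libraries overlapped for every gene of the list, Rfx5 among them. Ctss, the lysosomal protease cathepsin S, which trims the invariant chain, had the smallest p in YJT against Model, with -0.41 (SE 0.21, edgeR adjusted p = 0.774). All its YJT libraries (32.4 to 42.3 FPKM) were below all Model libraries (50.8 to 56.5 FPKM) in FPKM. In TMM-scaled CPM, 2 of the 14 genes had all YJT libraries below Model, against 4.92% of all genes.

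The interferon list held 20 genes, of which 19 were tested, and 11 were higher in SYT than in Model, 7 in YJT, 15 in YJZYT and 6 in Model than in Blank. The median log2 fold change in YJZYT against Model was 0.18, and unadjusted p was under 0.05 for 1 gene in SYT against Model, 1 in Model against Blank and 0 in the others. Stat2, a factor of interferon signalling, had the smallest p in SYT and YJT against Model and in Model against Blank, with -0.34 (SE 0.15), -0.28 (SE 0.15) and 0.46 (SE 0.15) and edgeR adjusted p = 1, 0.775 and 0.407. Isg15, an interferon-induced modifier protein, was at 16.0, 5.87 and 3.33 FPKM in YJZYT, against 3.07, 6.30 and 2.31 FPKM in Model, a fold change of 1.20 (SE 0.58, edgeR adjusted p = 0.681). YJZYT1 was high and the groups overlapped. YJZYT1 was also the library with the highest Cd74, Ciita, RT1-Da and RT1-S3. It was not alone in its interferon level. The 20 genes summed to 338 FPKM in YJZYT1, 335 in Blank3, 270 in YJT3 and 267 in Blank1. In the remaining libraries the sum was 171 to 260 FPKM, with YJT2 at 199 and Blank2 at 187. A relation of this list to the RT1 entries was not tested.

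The class I-like list held 6 genes outside the RT1 set, such as Fcgrt, Mr1 and Hfe. Of the 6, 6 were higher in SYT than in Model, 1 in YJT, 0 in YJZYT and 2 in Model than in Blank, with 1 under an unadjusted p of 0.05 in Model against Blank and 0 elsewhere. Procr, the endothelial protein C receptor, had the smallest p in SYT and YJT against Model, with 0.47 (SE 0.30) and 0.64 (SE 0.30) and edgeR adjusted p = 1 and 0.768. Azgp1 had the smallest p in YJZYT against Model and in Model against Blank, but it was at or under 0.280 FPKM in all 15 libraries and at 0 in the 3 Blank libraries, so no fold is given.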

How the data were processed

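Bone RNA was measured in 15 libraries, 3 in each of 5 groups taken from the labels, with values read from 1 deposited table. Per the labels' protocols, poly(A) RNA was fragmented, the second strand carried dUTP and was removed, and adapters held unique molecular identifiers. Among the tools listed by the submitters' processing notes are HISAT2 2.0.4 and StringTie 1.3.4d, with UMI-tools, edgeR, DESeq2 and cutadapt 1.9 beside them. The genome build, the strand setting and the handling of reads that map to several copies were not given in the sources used here, which matters for near-identical RT1 entries. Per the file headers, the authors deposited for each library a read count, in whole numbers, and FPKM of every gene.

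The counts were tested as deposited with edgeR 4.0.16 in R 4.3.3 (filterByExpr, TMM, 1 robust quasi-likelihood fit of 15 libraries, 10 residual degrees of freedom, two-sided, Benjamini-Hochberg over 17657 genes). An SE is the fold change divided by the root of F. The 36 members and all pathway and cell type lists were chosen with earlier results of these data known. Values by library are given for the 6 non-RT1 members, the 4 class I and 4 class II entries with the highest mean FPKM, and the 8 RT1 entries with the largest ratio of highest to lowest library (0.1 added) that reach 5 FPKM. Fold changes are given for the first 14 of these in Model against Blank and for the 3 smallest p elsewhere, and pathway lists name up to 2 genes of smallest p. Other genes named were chosen after their values were seen. Alternatives were RLE factors, other filters, DESeq2 1.42.0, limma 3.58.1 on log2(FPKM + 1) and log2(FPKM + 0.1), the 6 libraries compared, a replicate block, summed entries and each replicate left out. The fits without YJT2, Blank1 and Blank3, without YJT3 and YJZYT3, and with no scaling factors were added once values had been seen. The depth of 64472700 to 74255667 counts bounds counting error only. No pair of libraries in a group agreed within sampling noise. The fit was tested on simulated counts in Model against Blank. It recovered 19.4% of 2-fold, 76.1% of 4-fold and 89.4% of 8-fold changes, with 3 false calls. Most 2-fold changes were thus missed. The changed genes were drawn at random from all genes above a low CPM floor, without regard to membership. Class II entries had a median biological coefficient of variation of 47.9%, against 31.8% over all genes, so recovery among members may differ.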

Additional observations from a re-analysis of the deposited data

How the results depend on the processing

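The count of members past the threshold was 0 in all 4 comparisons under each alternative run, except for DESeq2 in Model against Blank, which called 1 (RT1-CE10). Genes past the threshold in Model against Blank numbered 4 in edgeR, 289 in DESeq2, 41 in limma on log2(FPKM + 1), 2 in limma on log2(FPKM + 0.1) and 8 with the 6 libraries compared. They numbered 0 with no scaling factors, without YJT2, Blank1 and Blank3, and without YJT3 and YJZYT3, and 0 to 5 with 1 replicate left out. Elsewhere edgeR called 0 genes and DESeq2 called 27 in SYT, 96 in YJT and 63 in YJZYT against Model, and leaving out 1 replicate gave 0 to 1 in SYT and in YJZYT against Model. The range for YJT against Model is not given here, so its stability cannot be read from these counts.

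Replicate numbers are shared between groups. Deviations from group means of same-numbered libraries had correlations from -0.683 to 0.673 (median -0.0455, over 0.1 in 12 of 30 pairs). Libraries of different number had correlations from -0.698 to 0.619 (median -0.0045, over 0.1 in 26 of 60 pairs). With ranges this wide, these values cannot tell whether same-numbered libraries shared a batch. With the replicate block, 0 genes and 0 members passed in Model against Blank.

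Of the 23 fold changes named by rule, 6 turned direction, all in Model against Blank and none past the threshold in edgeR. Over all 35 members, many more turned. Without YJT2, Blank1 and Blank3, 13 turned in Model against Blank (RT1-CE10 to 0.60, RT1-CE3 to 0.13) and 9 in YJT against Model (RT1-CE10 to -0.08, RT1-Ba to -0.62). Those libraries were picked out for high values of RT1 entries, so turns of such entries followed from the choice. With no scaling factors 12 turned in SYT against Model, and without SYT replicate 3, YJT replicate 2 or YJZYT replicate 1 it was 10, 10 and 9 in that group against Model. Of the 6, without YJT2, Blank1 and Blank3 values were 0.092 for Tap2, 0.037 for Tapbp, 0.025 for RT1-A2 and 0.007 for RT1-CE5. Cd74 (0.00) was 0.01 in both limma fits, 0.017 with 6 libraries, 0.002 with summed entries and 0 without YJT3 and YJZYT3. With 1 replicate left out, Cd74 ran from -0.169 to 0.079, RT1-A2 from -0.316 to 0.181 and RT1-DMb from -0.106 to 0.121. On deviations from group means, r was -0.028 for Cd74 and Cd79a, 0.739 for B2m and Tap1 and -0.248 for B2m and Tapbp. The causes were not tested.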

Other observations

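The table holds further entries that its own descriptions name as MHC genes but whose symbols do not begin with RT1-, 9 in all, of which 5 reached 5 FPKM in a library. These were looked up after the values of the RT1 entries were seen. LOC103690108, described as a non-RT1.A class I alpha chain (chromosome 20, 3791407 to 3794027 in the deposited coordinates), was at 0, 55.04 and 0.417 FPKM in SYT, at 0, 66.8 and 0 FPKM in YJT, and at 0.215, 0.137 and 0.199 FPKM in YJZYT, with 0.195, 0.266 and 0.303 FPKM in Model and 159.7, 0.203 and 179 FPKM in Blank. It was high in SYT2, YJT2, Blank1 and Blank3 and at or under 0.417 FPKM in the other 11 libraries. LOC100364500, described as like the CE11 class I locus, was at 3.07, 1.85 and 5.35 FPKM in SYT, at 7.27, 18.04 and 4.56 FPKM in YJT, and at 8.42, 3.52 and 10.2 FPKM in YJZYT, with 7.93, 2.97 and 7.31 FPKM in Model and 26.9, 2.03 and 35.6 FPKM in Blank.

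Among genes between the outermost chromosome 20 members, 189 were tested. In TMM-scaled CPM, 5 of them (2.65%) had YJT2, Blank1 and Blank3 highest, with at least a 1.3-fold gap to the next library. Elsewhere it was 0.0172% of 17468 genes. These libraries were picked from the members' own values, so the higher share cannot be read as a test of the region. Of the 5, RT1-CE10 and RT1-CE3 are members, and RT1-CE3 only just reached the gap. The other 3 were not members. They were AABR07044322, LOC100364500 and LOC103690108, and LOC103690108 was also high in SYT2. AABR07044364, described as a class I alpha chain, overlaps RT1-T24-1 and ranged from 5.90 to 16.0 FPKM. The second DMb and DMa entries, LOC108348139 and LOC108348072, ranged from 7.91 to 20.2 and from 5.00 to 15.5 FPKM, so the levels of RT1-DMb and RT1-DMa may leave out part of their transcripts.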
